A study of Rattus norvegicus with 33 samples.

Results

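The soleus of rats that had undergone a sham operation was compared between 3 days and 1 day after surgery. The arrays were chosen by their labels alone: the 3 arrays labelled Sham-GA at 3 days and the 3 arrays labelled Sham-GA at 1 day, 6 of the 33 arrays of the series. Gastrocnemius ablation (GA) cuts the gastrocnemius free at its lower end, where it joins the Achilles tendon, so that the soleus, a small slow-twitch postural muscle, carries more load. Sham-GA animals had the same anesthesia with isoflurane, skin opening and blunt separation of the insertion, but the insertion stayed intact. All animals of both groups were female Wistar rats, between 22 and 23 weeks old at surgery, with no spinal surgery and no electrical stimulation. Each array held total RNA from the soleus of 1 animal, with RNA integrity numbers above 8. The 6 animals are 3 different animals at each day, so a difference between days is a difference between animals, and no untouched animals of the same experiment were analysed here. The GA animals at 1 and 3 days (6 arrays), which share no array with the sham groups, were used for comparison. The hour at which muscles were taken is not given in the sources used here; the animals lived in a cycle of 12 hours of light and 12 hours of dark.

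A skin incision and dissection beside a muscle is followed in most tissues by an early entry of neutrophils, a later entry of macrophages, and then by matrix synthesis and cell division. Skeletal muscle also carries its own circadian clock. In that clock the activators BMAL1 and CLOCK, or NPAS2 in the place of CLOCK, switch on the Period and Cryptochrome genes, whose proteins inhibit the activators. REV-ERB proteins, encoded by Nr1d1 and Nr1d2, repress Bmal1, and the output factors DBP and TEF carry the rhythm to other genes. Levels of Bmal1 and Npas2 run opposite in phase to those of the Period genes and Dbp. The question of the comparison is how far the sham-operated muscle itself differs between the first and the third day.

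An array of each group stood apart from the other arrays of its group. The array labelled Sham-GA 1 day replicate 1 correlated at 0.970 and 0.971 with the other Sham-GA 1 day arrays, across the 14451 genes tested, and at 0.990 with its nearest array, GA 1 day replicate 1. The array labelled Sham-GA 3 days replicate 2 correlated at 0.964 and 0.974 with the other Sham-GA 3 days arrays and at 0.992 with its nearest array, GA 3 days replicate 1. The other 4 sham arrays of these days correlated at 0.986 to 0.994 with each other, whatever the day. Sham-GA 1 day replicate 1 and Sham-GA 3 days replicate 2 correlated at 0.984. On the GA side, GA 3 days replicate 2 correlated at 0.971 and 0.985 with the other GA 3 days arrays. Its nearest array was Sham-GA 3 days replicate 3, at 0.988, and it was kept in the GA values below. Whether these arrays carry the labels of their animals was not tested, and every value below that sets Sham-GA beside GA rests on those labels. The arrays keep their labels here. Each main result is also given without Sham-GA 1 day replicate 1 and Sham-GA 3 days replicate 2, the 2 sham arrays that stood apart. Those fits set 2 arrays against 2, with the spread estimated over all remaining arrays of the fit.

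The 2 sham arrays that stood apart differed from the other 4 mainly in genes of immune cells, matrix and cell division, which were higher. Genes of oxidative metabolism were lower in them. The mean deviation of the 26 macrophage genes from the median of the 18 GA and Sham-GA arrays (log2 scale) was 0.58 in Sham-GA 1 day replicate 1 and -0.68 and -0.76 in the other arrays of that day. At 3 days it was 0.42 in replicate 2 and -0.91 and -0.63 in replicates 1 and 3. For 11 collagen genes of the matrix list only Sham-GA 3 days replicate 2 was higher, at 0.30. Sham-GA 1 day replicate 1 was at -1.04 for these genes, within the range of the other 4 arrays (-1.15 to -0.88). Cd68, a lysosomal marker of macrophages, was 10.49, 8.55 and 8.45 (log2 expression) at 1 day and 8.19, 10.49 and 8.85 at 3 days, so that the high array of each day set its group's spread. The part of these differences in the results was not tested beyond leaving the arrays out.

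A defining gene of slow fibers was high in all 6 arrays, whose tissue, the soleus, is known from the study. Myh7, the slow myosin heavy chain, was 13.43, 13.60 and 13.61 at 1 day and 13.62, 13.46 and 13.66 at 3 days. Fast fiber genes varied more between animals: Myh1, a fast myosin heavy chain, was 8.01, 8.49 and 7.09 at 1 day and 11.20, 8.92 and 7.35 at 3 days. In whole muscle, fewer cells of a type and less RNA per cell cannot be told apart.

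No gene was called between the sham groups at an adjusted p under 0.05 (limma with Benjamini-Hochberg adjustment over all 14451 genes) and at least 1.5 fold, 0% of the genes tested. The smallest adjusted p was 0.258. At an unadjusted p under 0.05 there were 784 genes, 5.43% of those tested, of which 331 were higher and 453 lower at 3 days. Without the 2 arrays that stood apart no gene was called (0%), the smallest adjusted p was 0.428, and 599 genes (4.15%) had an unadjusted p under 0.05. The median change of all genes was -0.003 on the log2 scale, and 7121 genes were above 0. For 9929 genes (68.7%) the 95% interval of the change lay wholly within 1.5 fold in either direction, and for the others it reached 1.5 fold or more at this number of arrays. The median standard error (SE) of a change was 0.154 on the log2 scale, and 347 genes (2.40%) had an estimated change of at least 1.5 fold, 210 higher and 137 lower. Other settings did call genes. There were 28 with array weights estimated gene by gene and 18 with REML array weights, a fit that stopped before converging. Pkig, Per1, Per2, Parm1 and Srxn1 were among the 18. The methods' two-way test passed 139 genes of at least 1.5 fold between the sham groups after Benjamini-Hochberg adjustment. It tests day, or day by operation, over all 18 GA and Sham-GA arrays, so it is not a test between these 2 groups. The sham changes described from here on did not pass the limma test set out above, and their values are given as measured. In all, 528 genes (3.65%) had all 3 arrays of 3 days above all 3 arrays of 1 day, and 869 genes (6.01%) had them all below.

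**Figure D1:**
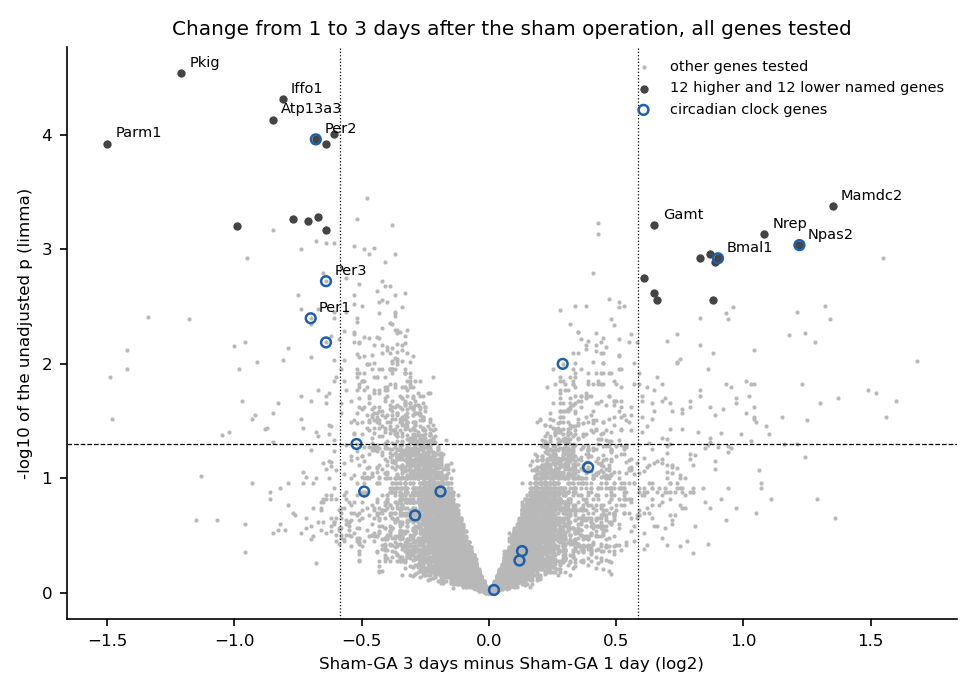
Each point is a gene, plotted by its change from 1 to 3 days after the sham operation (log2, horizontal) and by -log10 of its unadjusted p from limma (vertical); dotted lines mark 1.5 fold and the dashed line an unadjusted p of 0.05. Pkig, Iffo1 and Atp13a3 have the smallest p, and no gene reached an adjusted p under 0.05.

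Among the 24 genes named by size and order (described after the clock), 3 were clock genes: Per2, lower at 3 days, and Npas2 and Bmal1, higher. Of the 15 clock genes tested, 3 had all arrays of 3 days above those of 1 day and 4 had them all below (3.65 and 6.01% of all genes). At an unadjusted p under 0.05 (limma) there were 3 clock genes higher and 5 lower, beside 331 higher and 453 lower of all 14451 genes. The list was written with earlier results of these data known. The median over the whole list, -0.19, describes it poorly, because activators and repressors lay on opposite sides of 0.

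All 3 activators were higher at 3 days without overlap. Bmal1 was 7.98, 7.66 and 8.61 at 1 day and 9.03, 8.85 and 9.07 at 3 days, a difference of 0.90 ± 0.226 (SE, log2; 1.86 fold; unadjusted p = 0.0012, adjusted p = 0.49, limma). Npas2 was 7.28, 8.26 and 7.97 at 1 day and 9.33, 8.82 and 9.04 at 3 days, a difference of 1.22 ± 0.299 (2.34 fold). Clock was 9.66, 9.80 and 9.97 and then 10.18, 10.03 and 10.09, a smaller difference of 0.29 ± 0.0987. For Clock the days were separated by a much smaller gap than for Bmal1 and Npas2. Without the 2 arrays that stood apart the differences were 0.91 for Bmal1, 1.07 for Npas2 and 0.25 for Clock.

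The Period genes, whose proteins repress the activators, lay the other way. Per2 was 7.69, 8.20 and 7.79 at 1 day and 7.08, 7.40 and 7.17 at 3 days, a difference of -0.68 ± 0.131 (unadjusted p = 0.00011, adjusted p = 0.26, limma). Every array of 3 days was below every array of 1 day. Per3 was 8.91, 9.38 and 9.04 at 1 day and 8.39, 8.19 and 8.81 at 3 days, a difference of -0.64 ± 0.172, also without overlap. Per1 was 7.86, 8.55 and 8.65 at 1 day and 7.29, 7.91 and 7.76 at 3 days (-0.70 ± 0.207), and its groups overlapped only through the 2 arrays that stood apart. Without those arrays the difference was -1.08 for Per1, -0.87 for Per2 and -0.61 for Per3.

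The other repressors were closer to 0. Cry1 differed by 0.12 ± 0.176, Cry2 by 0.13 ± 0.159 and Nr1d1 by 0.02 ± 0.275, each with overlapping arrays. Nr1d2 was at -0.29 ± 0.221. Bhlhe40, which encodes the repressor DEC1, was lower without overlap by -0.19 ± 0.116, and its relative Bhlhe41 was at -0.49 ± 0.305. Among output factors, Tef was 8.75, 9.08 and 9.35 at 1 day and 8.50, 8.02 and 8.76 at 3 days (-0.64 ± 0.202), so that the groups overlapped only between 8.75 and 8.76. Dbp was 10.22, 11.24 and 10.30 at 1 day and 10.20, 9.88 and 10.13 at 3 days (-0.52 ± 0.243). Replicate 2 of day 1 was far above the other arrays for Dbp, and the days were barely separated. Nfil3, which competes with DBP and TEF for their sites, was at 0.39 ± 0.21.

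At 7 days several of these genes lay near their levels of day 1. Bmal1 was 7.69, 8.22 and 8.43 at 7 days, and Per2 was 8.01, 7.99 and 7.94, both within the range of the 1 day arrays. Per3 was 9.27, 9.09 and 8.82 at 7 days. Npas2 was not among them, with 8.88, 8.99 and 9.16 at 7 days, and Per1 at 7 days was 7.95, 7.82 and 7.84, near its 3 day values. The 7 day groups were not tested against the others here.

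The GA animals, which are other animals, gave the same sign for 11 of the 15 clock genes, beside 52.7% of all genes. For 4 of the 15 the change differed between operations at an unadjusted p under 0.05 (limma, test of the difference), beside 9.67% of all genes. From 1 to 3 days after GA, Per1 fell by 1.69 ± 0.207 (log2, adjusted p = 0.0022, limma) and Per2 fell by 0.70 ± 0.131 (adjusted p = 0.011). Per1 was 8.79, 8.76 and 8.53 at 1 day after GA and 7.07, 6.69 and 7.26 at 3 days. Bmal1 was at 0.70 ± 0.226 and Npas2 at 0.86 ± 0.299 after GA, and neither passed (adjusted p = 0.098 and 0.12, limma). Among all genes tested 343 (2.37%) were called higher and 103 (0.713%) lower from 1 to 3 days after GA, a split that was 268 and 142 when the values were quantile normalized again. These counts were 17 and 10 without GA 1 day replicate 3, 37 and 22 without GA 3 days replicate 1, and 133 and 54 without GA 1 day replicate 1. The change of Per1 differed between GA and Sham-GA with an unadjusted p of 0.0040 but an adjusted p of 0.45 (limma, test of the difference), and that of Per2 with an unadjusted p of 0.90. Nfil3 was at -0.60 after GA and 0.39 after the sham operation, a difference with an unadjusted p of 0.0042 that did not pass either.

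**Figure D2:**
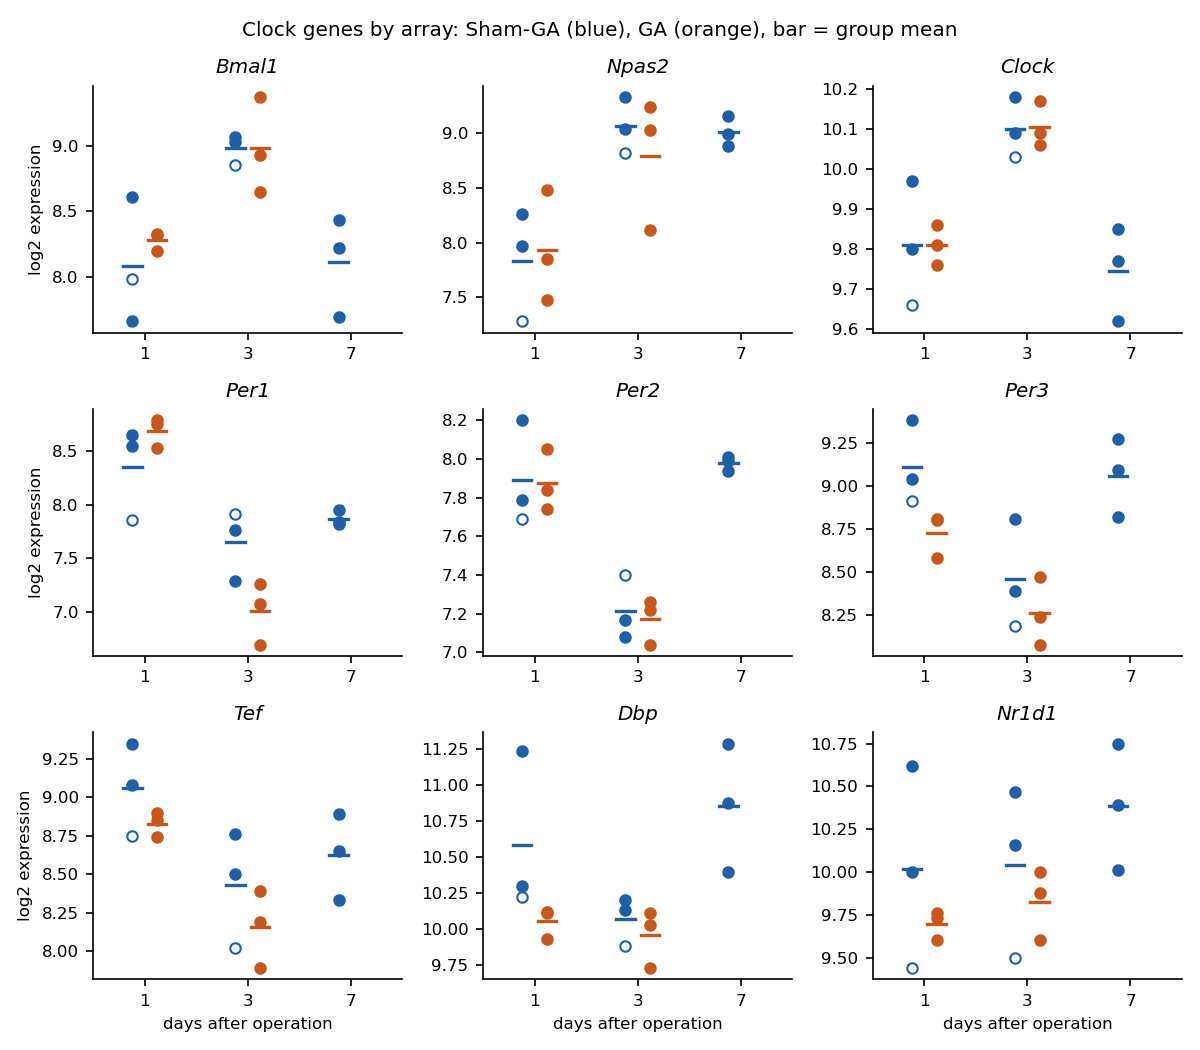
Log2 expression of 9 clock genes in each array at 1, 3 and 7 days after the sham operation (blue) and at 1 and 3 days after GA (orange), with a bar at each group mean; open circles are the 2 sham arrays that stood apart. Bmal1, Npas2 and Clock are higher and the Period genes lower at 3 days than at 1 day in both operations, while Nr1d1 overlaps.

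The upstream sequences of clock genes are shown for Per2 and Bmal1, which lay on opposite sides, and for Tef, to let the known control letters be seen beside the values. They were taken from RefSeq (GRCr8), 250 bases before the annotated start, and 14 of the 15 clock genes tested were matched. Capitals mark matches, on either strand, to 5 motifs: the E-box CACGTG bound by BMAL1 with CLOCK or NPAS2, its variant CACGTT, the site AGGTCA read by ROR and REV-ERB receptors, the D-box TTATGTAA read by DBP and TEF, and the cAMP response element TGACGTCA. None of these motifs overlapped another in the sequences shown.
Per2 promoter, chr9:99496994-99497243, minus strand: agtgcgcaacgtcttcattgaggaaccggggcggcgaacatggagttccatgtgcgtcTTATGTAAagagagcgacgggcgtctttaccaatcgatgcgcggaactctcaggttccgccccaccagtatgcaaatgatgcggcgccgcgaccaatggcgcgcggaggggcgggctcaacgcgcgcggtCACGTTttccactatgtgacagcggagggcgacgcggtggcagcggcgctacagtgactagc
Bmal1 promoter, chr1:176766078-176766327, plus strand: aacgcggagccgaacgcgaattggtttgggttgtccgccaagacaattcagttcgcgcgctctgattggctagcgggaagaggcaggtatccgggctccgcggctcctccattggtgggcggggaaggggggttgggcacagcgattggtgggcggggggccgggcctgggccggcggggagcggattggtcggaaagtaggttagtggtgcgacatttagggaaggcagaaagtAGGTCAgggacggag
Tef promoter, chr7:115206577-115206826, plus strand: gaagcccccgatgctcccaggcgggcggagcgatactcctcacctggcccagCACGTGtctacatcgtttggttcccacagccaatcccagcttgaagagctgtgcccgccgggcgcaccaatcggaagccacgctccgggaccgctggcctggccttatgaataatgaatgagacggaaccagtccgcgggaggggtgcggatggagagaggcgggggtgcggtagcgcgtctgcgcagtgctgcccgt
The Per2 window held TTATGTAA at bases 192 to 185 before the start and CACGTT at bases 62 to 57. The Bmal1 window held AGGTCA at bases 15 to 10, and the Tef window held CACGTG at bases 198 to 193. Of 27457 RefSeq promoters searched over the same length, 5.79% held CACGTG, 4.14% CACGTT, 13.7% AGGTCA, 0.816% TTATGTAA and 1.70% TGACGTCA. Among the 14 clock genes 8 held at least 1 of the 5 motifs, and 6 (Npas2, Clock, Per1, Per3, Dbp and Nfil3) held none within these bases. A match is a description of letters and not a measured site.

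The 12 named genes that were lower at 3 days were those of smallest unadjusted p among the 50 genes that were lower by at least 1.5 fold without overlap. Their changes ran from -0.61 to -1.50 on the log2 scale (1.53 to 2.83 fold) with adjusted p from 0.26 to 0.49 (limma). Parm1, which encodes a mucin-like membrane protein, had the largest change of the 12. It was 9.58, 9.37 and 9.55 at 1 day and 7.59, 7.95 and 8.46 at 3 days, a difference of -1.50 ± 0.295. Pkig, an inhibitor of cAMP-dependent protein kinase, was 10.82, 10.28 and 10.86 at 1 day and 9.37, 9.27 and 9.71 at 3 days (-1.21 ± 0.206, unadjusted p = 2.9e-05). Pkig had the smallest p of all genes, and its 7 day arrays were 9.28, 9.07 and 8.91.

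Atp13a3, a transport ATPase linked to polyamine uptake, was 10.23, 10.07 and 10.19 at 1 day and 9.03, 9.49 and 9.41 at 3 days (-0.85 ± 0.159). The 3 arrays of day 1 lay close together, and the nearest array of day 3 lay well below them. Iffo1, an intermediate filament family gene, was 9.29, 8.89 and 9.18 and then 8.28, 8.33 and 8.31 (-0.81 ± 0.146). H6pd, which supplies NADPH inside the endoplasmic reticulum, was 9.11, 8.86 and 9.36 and then 8.39, 8.48 and 8.56 (-0.64 ± 0.125). Neither gene showed overlap between days.

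Trim55, a ubiquitin ligase of the sarcomere (MuRF2), was 10.54, 10.30 and 10.14 at 1 day and 9.48, 9.12 and 9.41 at 3 days (-0.99 ± 0.232). Mcm7, a subunit of the helicase that opens DNA for replication, was 8.88, 8.41 and 8.76 at 1 day and 8.06, 8.24 and 7.61 at 3 days (-0.71 ± 0.164). Ddx10, an RNA helicase of ribosome assembly, was at -0.67 ± 0.153 and Riox2, a ribosomal oxygenase, at -0.77 ± 0.178. Hgh1 was at -0.64 ± 0.151. The olfactory receptor gene Or10ak14 was 4.52, 4.61 and 4.39 and then 3.89, 3.95 and 3.86 (-0.61 ± 0.117), at the dim end of the table. Of 1059 olfactory receptor genes tested, 46 were lower and 12 higher at an unadjusted p under 0.05, beside 453 lower and 331 higher of all 14451 genes, and their median was -0.04.

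The 12 named genes that were higher at 3 days came from 51 genes higher by at least 1.5 fold without overlap, with changes from 0.61 to 1.35 (1.53 to 2.55 fold) and adjusted p from 0.49 to 0.66 (limma). Mamdc2, which encodes a secreted matrix protein, was 6.47, 7.41 and 6.63 at 1 day and 8.50, 8.56 and 7.51 at 3 days (1.35 ± 0.302). At 7 days it was 8.94, 9.12 and 9.57, above every earlier sham array. Nrep, first described in regenerating neurons, was 9.60, 10.28 and 9.03 and then 10.83, 10.56 and 10.76 (1.08 ± 0.257). Both genes were higher in all arrays of day 3, and the spread lay mostly within day 1 for Nrep.

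Gamt, the enzyme that completes creatine synthesis, was 7.93, 8.20 and 8.05 at 1 day and 8.92, 8.43 and 8.77 at 3 days (0.65 ± 0.151). Myl9, a regulatory light chain of smooth muscle and nonmuscle myosin, was 7.25, 7.38 and 7.59 and then 8.02, 8.60 and 8.23 (0.88 ± 0.248). Tnfsf10, the death ligand TRAIL, was at 0.89 ± 0.226 and Dusp8, a phosphatase of the JNK and p38 kinases, at 0.83 ± 0.208. For every named higher gene except Nrep, Bmal1 and P2ry2 the lowest array of day 1 was replicate 1, the array that stood apart. P2ry2, a nucleotide receptor, was at 0.61 ± 0.162, Ltc4s, the leukotriene C4 synthase, at 0.66 ± 0.185, and Gp5, a platelet glycoprotein, at 0.65 ± 0.181. The olfactory receptor gene Or2t48 was at 0.87 ± 0.219 with values from 2.91 to 4.57, among the dimmest of the table.

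Without the 2 arrays that stood apart all 24 genes kept their direction, with changes from -0.58 to -1.44 for the 12 lower genes and from 0.43 to 1.14 for the 12 higher ones. In the GA animals, where 0.713% of all genes were called lower and 2.37% higher and 52.7% of all genes had the sign of the sham change, 11 of the 12 lower genes were also below 0 and 7 were called lower: Pkig, Iffo1, Atp13a3, Per2, H6pd, Trim55 and Hgh1. Of the 12 higher genes 9 were above 0 after GA and 3 were called higher, namely Mamdc2, Tnfsf10 and Myl9. The sham and GA tests shared the same spread estimate for each gene, and the 24 genes were chosen by p. That choice favours genes of small spread, so the numbers called after GA are not independent of it. Mcm7 was at 0.16 after GA against -0.71 after the sham operation, with an unadjusted p of 0.0019 for the difference. Dusp8 was at -0.50 after GA against 0.83, with an unadjusted p of 0.00041 for the difference. None of these differences passed the adjustment (adjusted p = 0.45 for both, limma).

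**Figure D3:**
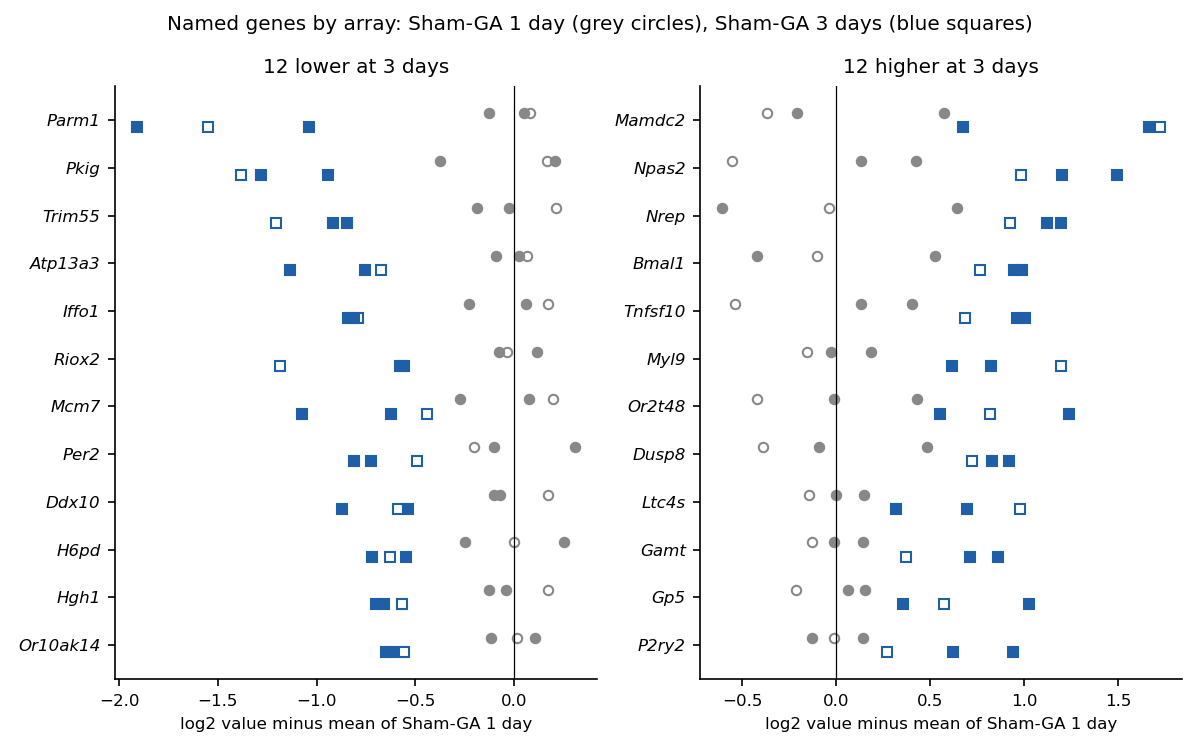
Values of the 12 lower and 12 higher named genes in each sham array, as log2 difference from the mean of Sham-GA 1 day; grey circles are 1 day, blue squares 3 days, and open symbols the 2 arrays that stood apart. For every gene the 3 blue squares lie on 1 side of the 3 grey circles, which is how the genes were chosen.

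Genes of muscle regulation and atrophy lay mostly lower at 3 days. Of 20 atrophy and denervation genes 15 were below 0 (median -0.18), and 13 without the 2 arrays that stood apart (median -0.15). At an unadjusted p under 0.05 (limma) 4 were lower and none higher, beside 453 lower and 331 higher of all 14451 genes. Gadd45a, a growth arrest gene that rises with denervation in muscle, was 10.00, 9.06 and 11.16 at 1 day and 8.91, 8.52 and 8.76 at 3 days (-1.34 ± 0.395; 2.54 fold lower). Hdac4, a deacetylase that relays loss of nerve activity to muscle genes, was 8.49, 8.57 and 10.24 at 1 day and 7.79, 7.58 and 8.38 at 3 days (-1.18 ± 0.352). In both genes replicate 3 of day 1 was the highest array by far, and the groups did not overlap. Runx1, a transcription factor of denervated and injured muscle, was 11.19, 9.87 and 10.81 and then 9.21, 10.34 and 9.33 (unadjusted p = 0.0070, limma), with overlap.

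Of the ubiquitin ligases that mark atrophy, Fbxo32 (atrogin-1) was at -0.08 ± 0.444 and Trim63 (MuRF1) at -0.55 ± 0.372. Fbxo30 was at -0.56 ± 0.211 (unadjusted p = 0.017, limma), with overlapping arrays. Among 14 myogenic regulators and fusion genes 10 were below 0. Myog, the factor of myoblast differentiation, was 10.04, 9.67 and 10.24 at 1 day and 9.41, 9.07 and 9.10 at 3 days (-0.79 ± 0.255) without overlap, and 8.46 on average at 7 days. Myf6, its relative in mature fibers, was at -0.32 ± 0.2. Acetylcholine receptor and endplate genes went the other way, with 8 of 12 above 0 (median 0.21). Of the 5 receptor subunits among them 3 were above 0 (median 0.18). Chrnb1, the beta subunit and the lowest of these 5, was 9.22, 9.45 and 9.79 and then 8.74, 8.95 and 9.04 (-0.58 ± 0.2). Colq, which anchors acetylcholinesterase at the endplate, was at 1.04 ± 0.414 with overlapping arrays.

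Genes of slow fibers were spread around 0, and none passed the test. Of 18 slow-twitch genes 13 were above 0 with a median of 0.03, and Myh7 differed by 0.03 ± 0.113. Without the 2 arrays that stood apart 10 of the 18 were above 0 (median 0.04). The highest member was Myh7b, a second slow myosin heavy chain gene, with 7.58, 9.34 and 7.83 at 1 day and 9.66, 8.60 and 9.23 at 3 days (0.91 ± 0.407; unadjusted p = 0.040, limma), and its days overlapped. Pln, phospholamban of the sarcoplasmic reticulum, was at 0.68 ± 0.347, also with overlap. Csrp3, the muscle LIM protein that responds to stretch, was 13.37, 13.18 and 12.79 at 1 day and 12.31, 12.76 and 12.41 at 3 days (-0.62 ± 0.193). Ankrd2, another stretch-responsive gene, was 13.71, 13.82 and 13.60 and then 13.43, 13.38 and 13.24 (-0.36 ± 0.118). Both were lower in every array of day 3. Their relative Ankrd1 was at -0.96 ± 0.809 with a spread that covered both directions. Of 15 fast-twitch genes 13 were above 0 (median 0.51), and none was without overlap. At an unadjusted p under 0.05 (limma) 1 was higher, beside 331 of all 14451 genes. The highest was Myh1 at 1.29 ± 0.847, and the lowest was Myh4 at -0.72 ± 0.567.

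Oxidative genes were slightly above 0 at 3 days. Of 67 subunits of oxidative phosphorylation 55 were above 0 with a median of 0.07, and none had an unadjusted p under 0.05. Cox8a, the highest, was at 0.19 ± 0.109. Fatty acid uptake and oxidation had 23 of 27 genes above 0 (median 0.15), led by Acsl1, which activates long-chain fatty acids, at 0.71 ± 0.47. In both lists the 2 arrays that stood apart were below the other 4, with mean deviations of -0.14 and -0.09 for oxidative phosphorylation against 0.32 to 0.47. Without them 57 of 67 and 21 of 27 genes were above 0.

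Among 15 regulators of the PGC-1 network, which drives mitochondrial genes, 10 were above 0. Perm1, a muscle gene induced by PGC-1 and ERR factors, had the highest estimated change of all genes tested: 7.01, 8.92 and 6.49 at 1 day and 9.99, 8.23 and 9.25 at 3 days (1.68 ± 0.566; unadjusted p = 0.0094). Its groups overlapped through replicate 2 of each day. Ppargc1b, the PGC-1 beta gene, was 8.06, 8.94 and 7.84 and then 9.31, 8.79 and 8.96 (0.74 ± 0.251), and Ppargc1a was at 0.42 ± 0.38. Tfam, the packaging factor of mitochondrial DNA, lay the other way at -0.47 ± 0.233 without overlap. After GA, Perm1 was at 0.15 and Ppargc1b at 0.45.

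Genes of protein folding and of protein and ribosome turnover lay below 0 in most members, by small amounts. All 25 endoplasmic reticulum folding and stress genes were below 0 (median -0.29). Of these, 1 had an unadjusted p under 0.05 (limma), beside 453 lower of all 14451 genes. Ppp1r15a, which restarts translation after stress, was 9.35, 9.22 and 8.94 and then 8.70, 8.65 and 8.87 (-0.43 ± 0.162). Creld2, the lowest of the list, was at -0.62 ± 0.401 and Calr (calreticulin) at -0.46 ± 0.222. In this list the 1 day array that stood apart was at a mean deviation of 0.42 against -0.03 and 0.07 for the other arrays of the day, and the 3 day array that stood apart was at 0.11 against -0.29 and -0.24. Leaving out both kept 24 of 25 genes below 0 with a median of -0.27. After GA 18 of the 25 genes were above 0 (median 0.16).

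Of 35 cytosolic chaperones 25 were below 0, and 23 without the 2 arrays that stood apart. Of the 25, 6 had an unadjusted p under 0.05 (limma), beside 453 lower of all 14451 genes. Hspb1, the small heat shock protein HSP27, was 12.90, 12.71 and 12.54 at 1 day and 12.08, 12.29 and 12.20 at 3 days (-0.53 ± 0.163). Of 31 proteasome subunits 28 were below 0 (median -0.15) and 13 were lower without overlap, beside 6.01% of all genes. Psma5 was at -0.38 ± 0.133. Without the 2 arrays 21 of the 31 were below 0 and the median was -0.07. Of 61 ribosomal protein genes 54 were below 0, with a median of -0.07 and none at an unadjusted p under 0.05. Among 16 nucleolar and related factors 15 were below 0 (median -0.31), with Nop56, a core protein of ribosomal RNA methylation, at -0.49 ± 0.153.

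Early response genes lay mostly below 0. Of 19 immediate early and stress factors 16 were below 0 (median -0.22), and 15 without the 2 arrays that stood apart (median -0.17). At an unadjusted p under 0.05 (limma) 4 were lower, beside 453 of all 14451 genes. Egr1 was 9.87, 9.30 and 9.25 at 1 day and 8.40, 9.45 and 8.01 at 3 days (-0.85 ± 0.348), and Myc was at -0.88 ± 0.385, both with overlap. After GA all 19 were below 0 with a median of -0.70, and 6 were called lower, beside 0.713% of all genes. Stat3, the transducer of interleukin 6 signals, was 11.43, 11.16 and 11.45 and then 10.91, 10.91 and 10.92 (-0.43 ± 0.124), and the day 3 arrays were almost equal. Of its list of 22 interleukin 6 family and acute phase genes 17 were below 0 (median -0.17), and 13 without the 2 arrays (median -0.14).

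Glucocorticoid responsive genes had 14 of 20 members below 0 (median -0.20). The metallothioneins, which bind zinc and copper, were among the lowest: Mt2A was 13.68, 13.40 and 13.81 at 1 day and 12.81, 13.11 and 13.16 at 3 days (-0.61 ± 0.18), without overlap. Mt1 was at -0.63 ± 0.285. The lowest of the list was Per1 (-0.70), also a clock gene. Of the 5 genes of the receptor and its feedback 3 were above 0 (median 0.06). The lowest of those 5 was the receptor cofactor gene Fkbp5 at -0.27 ± 0.161. Of 22 oxidative stress and glutathione genes 11 lay on each side of 0. Srxn1, which repairs oxidized peroxiredoxins, was 7.16, 6.91 and 7.05 and then 6.56, 6.77 and 6.35 (-0.48 ± 0.106, unadjusted p = 0.00036), and Gclc, the rate-limiting enzyme of glutathione synthesis, was at -0.70 ± 0.211. Gstm2, a glutathione transferase, was at 0.68 ± 0.248.

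Growth factor genes were mixed. Igf1r, the receptor of insulin-like growth factor 1, was 9.00, 8.64 and 9.01 at 1 day and 8.25, 8.58 and 8.34 at 3 days (-0.49 ± 0.122, unadjusted p = 0.0010). Irs1, an adaptor of that receptor, was 8.21, 8.86 and 8.30 and then 9.19, 8.91 and 8.86 (0.53 ± 0.152). Both were without overlap, the receptor lower and the adaptor higher. Of 30 Wnt pathway genes 22 were above 0 (median 0.15), led by the secreted inhibitors Dkk2 at 1.37 ± 0.53 and Dkk3 at 1.05 ± 0.444, both with overlap.

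Genes of immune cells lay on both sides of 0. Of 15 neutrophil genes 9 were below 0 (median -0.14), whereas without the 2 arrays that stood apart 3 were below 0 and 12 above (median 0.13), so the direction of this list turned. S100a9, an abundant neutrophil protein, was 8.74, 6.17 and 5.50 at 1 day and 5.97, 6.84 and 6.86 at 3 days (-0.25 ± 0.597). Csf3r, the receptor of granulocyte growth factor, was 9.21, 6.60 and 6.34 and then 6.47, 7.23 and 6.74 (-0.57 ± 0.59). In both the array of day 1 that stood apart was the highest of all 6, and without the 2 arrays the values were 0.58 and 0.13, above 0. After GA, the day 3 level of S100a9 was lower, with a log2 difference of -2.73 (adjusted p = 0.022, limma). The difference between the operations for S100a9 had an unadjusted p of 0.0098 and an adjusted p of 0.45.

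Of 26 macrophage genes 12 were above 0 and 14 below. Of their 15 surface receptors 10 were below 0 (median -0.27), with Itgam the lowest at -0.69. Of the 11 secreted and intracellular proteins 7 were above 0 (median 0.31). Without the 2 arrays that stood apart these medians were -0.18 and -0.02. Adgre1, a surface receptor of mature macrophages and the highest of the list, was 7.78, 6.42 and 7.15 at 1 day. At 3 days it was 7.44, 8.74 and 7.91 (0.92 ± 0.368). C1qa, a complement subunit made by macrophages, was 8.34, 8.86 and 9.29 and then 8.93, 10.16 and 9.54 (0.72 ± 0.29), and 0.16 without the 2 arrays. Spp1, osteopontin, had the widest spread, with 12.31, 9.40 and 7.77 and then 8.46, 10.18 and 7.96. The chemokine gene Ccl7 was 10.86, 7.79 and 8.20 and then 7.31, 8.07 and 7.02 (-1.48 ± 0.617), and -0.83 without the 2 arrays. Interferon-stimulated genes had 25 of 31 members below 0 (median -0.16), and 17 of 31 without the 2 arrays.

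Matrix, fibroblast and cell division genes were highest in replicate 2 of day 3. Of 37 extracellular matrix genes 26 were above 0 (median 0.16). Col1a1 was 10.08, 9.96 and 10.32 at 1 day and 10.22, 12.45 and 10.68 at 3 days (0.99 ± 0.446), and 0.31 without the 2 arrays. Without those arrays 15 of the 37 genes were above 0 and the median was -0.11, so the direction of the list turned. Thy1, a fibroblast surface marker, was 7.70, 6.82 and 6.98 and then 7.23, 10.35 and 7.63 (1.24 ± 0.62), and 0.53 without the 2 arrays. Of 32 cell division genes 23 were above 0 (median 0.44) and again 23 without the 2 arrays (median 0.25). Of the 9 below 0 the lowest was Mcm6 at -0.52, and Mcm7, named above but not in this list, was at -0.71. Plk1, a mitotic kinase, was 6.65, 5.58 and 5.61 and then 6.22, 8.58 and 6.53 (1.16 ± 0.546), and 0.78 without the 2 arrays. Tk1, thymidine kinase, was 6.39, 6.58 and 6.42 and then 6.66, 6.91 and 6.73 (0.30 ± 0.114) without overlap. After GA all 32 were above 0 with a median of 1.76, and 16 were called higher, as were 12 of the 37 matrix genes, beside 2.37% of all genes.

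Genes of blood cells had the highest median of the 45 lists, 0.71, with all 7 members above 0. Slc4a1, the anion exchanger of red cells, was 6.75, 6.76 and 6.08 at 1 day and 7.58, 7.50 and 8.26 at 3 days (1.25 ± 0.524). Alas2, which starts heme synthesis in red cells, was 9.85, 9.97 and 7.95 and then 10.29, 9.80 and 11.02 (1.11 ± 0.745), with overlap. The mean deviation of the list was -1.12 in replicate 3 of day 1 and 1.09 in replicate 3 of day 3, and 0.18 to 0.47 in the other 4 arrays. Without the 2 arrays that stood apart the median was 1.07, and after GA it was 0.99.

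Of 16 endothelial genes 12 were above 0 (median 0.06), and 5 without the 2 arrays that stood apart (median -0.07). Pericyte and smooth muscle genes had 12 of 14 members above 0 (median 0.27), with Kcnj8 at 0.41 ± 0.179, and a median of 0.05 without the 2 arrays. Vegfa was 10.17, 10.55 and 9.62 and then 10.63, 10.43 and 10.62 (0.45 ± 0.19) after the sham operation and -0.54 after GA, with an unadjusted p of 0.0021 and an adjusted p of 0.45 for the difference (limma). Adipoq, adiponectin, was at 0.45 ± 0.906 and Scx, a tendon factor, at 0.31 ± 0.18. The nerve list had 6 of 10 genes above 0, with Sox10 of Schwann cells at 0.18 ± 0.136.

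**Figure D4:**
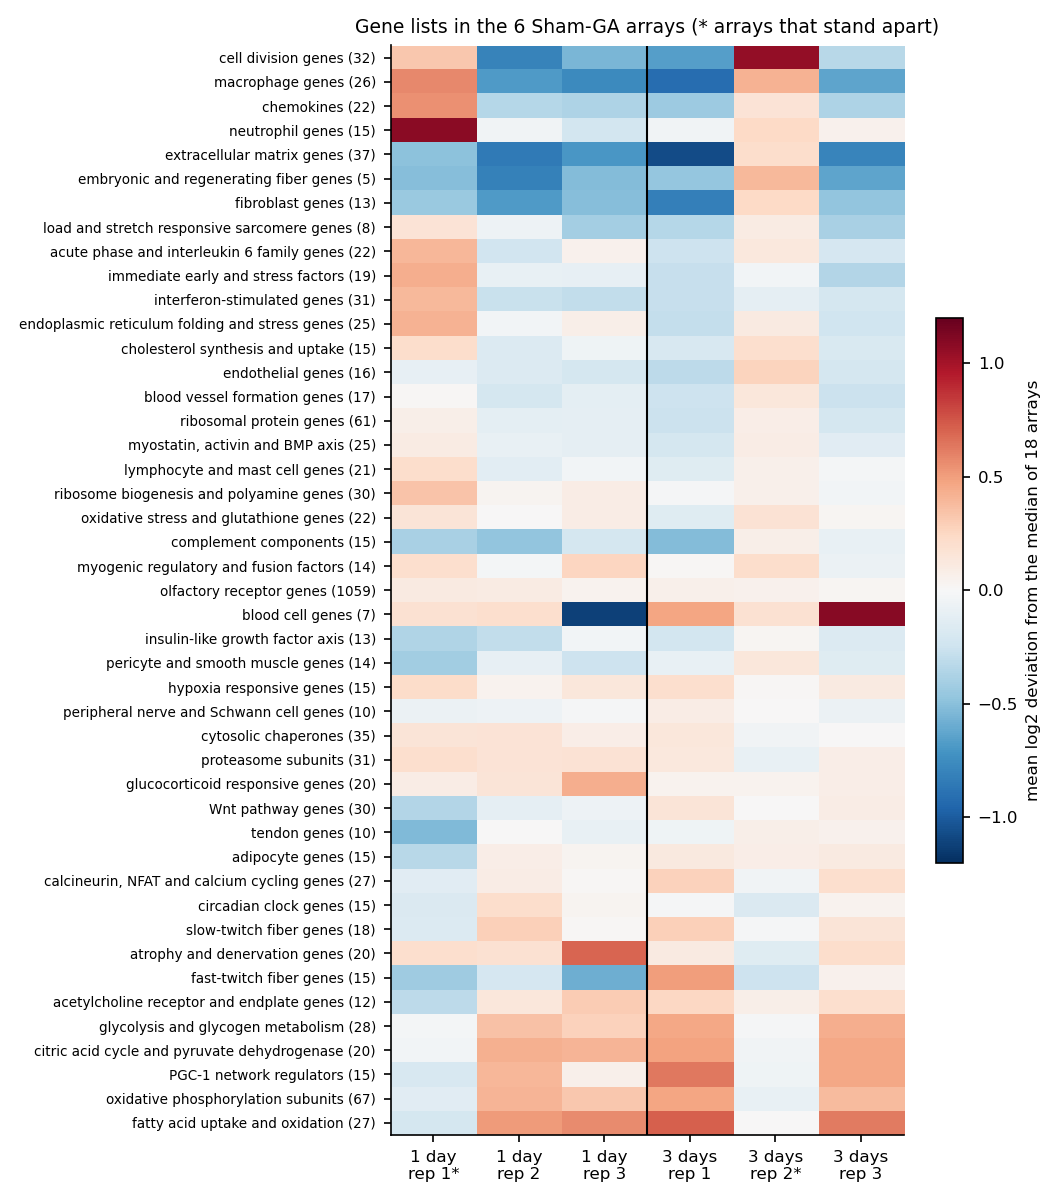
Mean log2 deviation of each gene list (number of genes tested in parentheses) from the median of the 18 GA and Sham-GA arrays, in each of the 6 sham arrays; red is above and blue below that median, and asterisks mark the 2 arrays that stood apart. Macrophage, matrix and cell division genes are higher and oxidative genes lower in those 2 arrays than in the other 4, while blood cell genes contrast replicate 3 of each day.

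The change from 1 to 3 days was set beside that after GA in other animals. Across the 14451 genes the changes after the sham operation and after GA correlated at 0.372, and at 0.127 without the 2 arrays that stood apart. This is a description across genes, which are not independent replicates, of values normalized together. Of the 446 genes called after GA 398 (89.2%) had the same sign after the sham operation, against 52.7% of all genes, and 67.3% had it without the 2 arrays. Genes called higher after GA had a median of 1.05 there and 0.27 after the sham operation (0.09 without the 2 arrays). Genes called lower after GA had medians of -0.84 and -0.27 (-0.16 without the 2 arrays). In the test of the difference between the operations no gene was called (0%), with a smallest adjusted p of 0.209, and 1398 genes (9.67%) had an unadjusted p under 0.05.

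**Figure D5:**
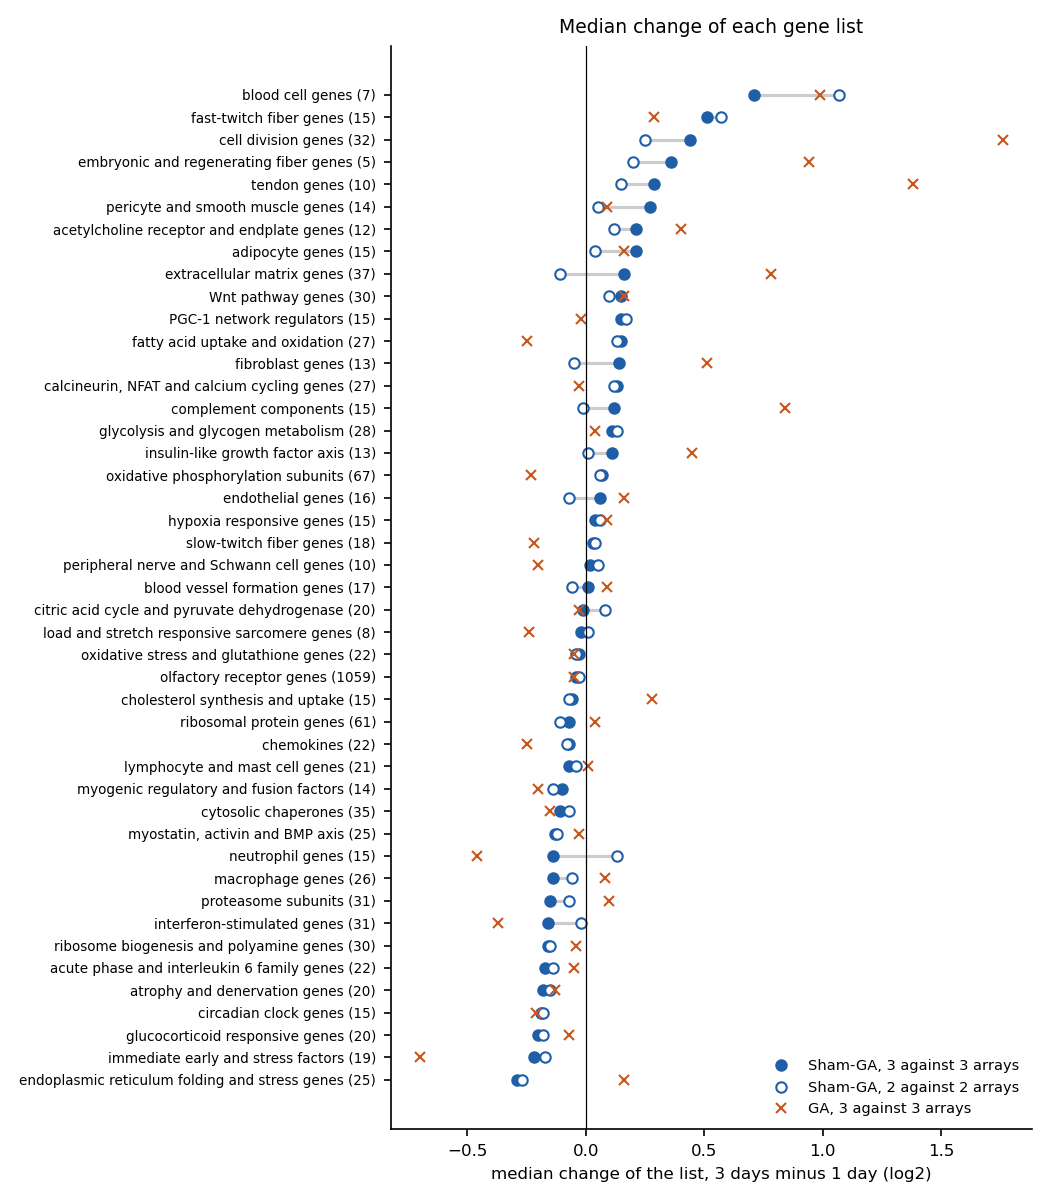
Median change from 1 to 3 days of each gene list (log2) after the sham operation with all 6 arrays (filled blue), without the 2 arrays that stood apart (open blue) and after GA (orange crosses). Blood cell genes are highest and endoplasmic reticulum folding genes lowest after the sham operation, and the matrix median turns from 0.16 to -0.11 without the 2 arrays.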

How the data were processed

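Total RNA of the soleus was hybridised to Affymetrix arrays, 1 per animal. The study names rat exon arrays, whereas the annotation table that gave the gene names here is for a Rat Gene ST array, so every gene name rests on that table. The authors deposited log2 expression values made with the oligo package by background subtraction, quantile normalization and median polish summarisation (RMA) of all 33 arrays together; versions are not given in the sources used here. Of the 29214 rows, 15310 have 1 gene symbol, 323 several and 13581 none in the annotation table used, which gave 14506 genes, the row of highest mean standing for a gene with several rows. Groups and days follow the labels, and the series' design text gives the same days for GA and Sham-GA, but it calls the operation bilateral where the study's methods describe the left leg. Genes whose average over the 18 GA and Sham-GA arrays reached 3 were tested with limma 3.58.1 in R 4.3.3, with 1 mean per group and Benjamini-Hochberg adjustment over all genes, and were called at an adjusted p under 0.05 and at least 1.5 fold. P-values measure the spread between animals, and the number of arrays, 3 a group, limits the precision. The fit was tested on simulated data.

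The genes named are the 12 higher and 12 lower genes of smallest unadjusted p among those of at least 1.5 fold whose groups did not overlap (no gene was called), up to 4 members of each list by unadjusted p, the lowest and highest of a list, members needed to describe a role, and cell markers. Members and lists were chosen with earlier results of these data known. Alternatives were another intensity filter, another scaling, a fit of only the compared arrays or of all arrays, array weights, the replicate block, the methods' two-way test, and each array left out in turn. Array weights estimated gene by gene were added after seeing the data.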

Additional observations from a re-analysis of the deposited data

How the results depend on the processing

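The count of 0 genes called between Sham-GA 3 days and Sham-GA 1 day became 1 (Pkig) in 1 fit of all 33 arrays, 18 with REML array weights, which stopped before converging, and 28 with array weights estimated gene by gene, 17 of them shared. The methods' two-way test, of day or day by operation over all 18 GA and Sham-GA arrays, does not test this contrast. Among genes of at least 1.5 fold between the sham groups it passed 216 unadjusted and 139 after Benjamini-Hochberg adjustment. The count between the sham groups stayed 0 without each array in turn (0 to 0 genes). At an unadjusted p under 0.05 the number ran from 513 without Sham-GA 1 day replicate 1 to 1407 without Sham-GA 3 days replicate 2. For GA the count of 446 ran from 27 (without GA 1 day replicate 3) to 440 when 1 array was left out, with 59 without GA 3 days replicate 1 and 187 without GA 1 day replicate 1. The difference between the operations kept 0 calls throughout, with 834 to 2474 genes at an unadjusted p under 0.05. The causes were not tested.

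Deviations of same-numbered sham arrays from their group means correlated at -0.642, -0.630 and 0.380. The 2 arrays that stood apart carry different numbers and correlated at 0.714. Deviations within 3 arrays sum to 0, so this pair bears on the other correlations. The check therefore cannot decide whether the numbers mark a pairing or a batch. With the replicate block 0 sham genes and 307 GA genes were called.

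Of 1892 values of 95 of the genes named, 1840 kept their direction and side of the threshold, 31 passed the threshold and 21 had the opposite sign. When 1 array was left out, Cry1 ran from -0.03 to 0.28, Myh7 from -0.02 to 0.09, Nr1d1 from -0.27 to 0.32, Fbxo32 from -0.37 to 0.34, Csf3r from -1.09 to 0.34 and S100a9 from -0.90 to 0.72. With gene by gene and REML weights Fbxo32 was 0.10 and 0.06, Csf3r 0.02 and 0.04, and S100a9 0.67 and 0.67; without both arrays that stood apart they were 0.05, 0.13 and 0.58. Of 900 list medians 62 changed sign and 22 moved by at least the spread between replicates.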
